A study of Rattus norvegicus with 32 samples.

Results

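The genes described here are 10 regulators of muscle mass, namely 5 genes of ubiquitin ligases (Fbxo32, Trim63, Fbxo30, Cblb and Asb2), 3 transcription factors (Foxo1, Foxo3 and Klf15), the growth inhibitor myostatin (Mstn) and the growth inhibitor Ddit4. They were chosen by name, as every probe that is no control spot and carries one of these names in either version of the annotation in the scanner files. This gave 16 of the 45598 probes of the array and 10 of its 34907 gene names. The names were chosen with earlier results of these data known. Of the 10 genes, 6 had 2 probes and 4 had 1 probe, and each gene is described by the probe with the higher mean unless stated otherwise.

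Left ventricles of Wistar rats were taken 20 h after sham surgery or cecal ligation and puncture (CLP), a surgical model of abdominal sepsis, and RNA of 32 animals was measured, 1 animal per 1-colour Agilent array. The CLP plus landiolol group received an infusion of landiolol, a beta-blocker selective for the β1 receptor and quickly degraded, in saline, whereas the other groups received saline without the drug, and buprenorphine was used against pain. There were 5 sham, 5 CLP and 6 CLP plus landiolol animals of each sex, all adult and of the same strain. Hearts were imaged in the living animal and then perfused outside the body before they were frozen, in every group, so the RNA is that of a perfused ventricle.

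Muscle loses mass when the breakdown of its proteins exceeds their synthesis, and much of this breakdown passes through ubiquitin ligases, which mark proteins for the proteasome. In skeletal muscle FoxO transcription factors, held outside the nucleus while insulin and IGF-1 activate Akt, switch on the genes of atrogin-1 (Fbxo32) and MuRF1 (Trim63) once that signal is lost, and glucocorticoids act on the same genes in part through Klf15. The heart expresses atrogin-1 and MuRF1 too, where they act on proteins of the sarcomere and on calcineurin.

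Values are log2 of the processed intensity of a probe after quantile normalisation within each sex, and a difference of 1 is therefore a 2-fold difference. Groups were compared with limma, and a difference was counted when it passed a false discovery rate (FDR, Benjamini-Hochberg over all probes kept) of 1% in both comparisons with sham, or of 5% for CLP plus landiolol vs CLP. Intensities of different probes are not compared, since each probe has its own brightness. Males lay on 2 of the 4 slides and females on the other 2, so sex and slide cannot be told apart in the levels themselves. The scanner files name the extraction protocol GE1_107_Sep09 for the first female slide and GE1_105_Dec08 for the other slides. Between 34920 and 43155 spots per array were well above background. The ventricle was checked by its markers, and the 7 cardiomyocyte genes were well above background on every array with group medians of their mean level between 17.01 and 17.41, while of 7 genes of skeletal muscle 3 or 4 were above background on every array of a group and Myh1 and Myh2 of fast fibres on no array. In a piece of tissue, fewer cells of a type and less RNA per cell cannot be told apart.

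The array read these genes through oligonucleotides of 60 bases, and the following ones are printed because values read with them are given below and because each of them can be read as an open frame over its whole length. For Trim63 and Asb2 it is the probe by which the gene is described, and for Fbxo32 and Ddit4 the second probe, whose values stand beside those of the first. The files give coordinates on build rn4 and do not state an exon or a region of the transcript. The Fbxo32 probe shown is the 1 of the 2 whose coordinates span 11078 bases of the genome, more than its own length. It is on the minus strand at chr7:94921822-94932899. The Trim63 probe is on the plus strand at chr5:153069319-153069378, the Asb2 probe on the minus strand at chr6:127613787-127613846 and the second Ddit4 probe on the minus strand at chr20:27253523-27253582.
Fbxo32: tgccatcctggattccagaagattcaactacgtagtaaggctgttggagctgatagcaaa
Trim63: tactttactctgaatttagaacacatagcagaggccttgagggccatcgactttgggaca
Asb2: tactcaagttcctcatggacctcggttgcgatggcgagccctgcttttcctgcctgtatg
Ddit4: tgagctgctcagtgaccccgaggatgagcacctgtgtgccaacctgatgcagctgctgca

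Since FoxO factors and the glucocorticoid receptor are both among the regulators described, the 250 bases before the start of each gene in RefSeq (build GRCr8) were searched on both strands for the FoxO site GTAAACA and for the glucocorticoid response element GAACANNNTGTTC. The letters of the response element were chosen after the Trim63 window had been read, so the match of Trim63 to them was fixed in advance. Windows were found for 7 of the 10 genes and not for Fbxo32, Foxo3 and Mstn. Trim63 was the 1 gene of the 7 with a match, and it had 1 match to each motif, the response element with its first base 219 bases and the FoxO site with its first base 205 bases before the start. Of 33465 windows of the same length, 3.22% held the FoxO site and 0.0418% (14 windows) the response element. None of these motifs was found for Fbxo30, Cblb, Foxo1, Klf15, Asb2 and Ddit4, which says only that these letters are not in these windows. The Trim63 window is shown for its matches to the response element and the FoxO site, which stand in capitals with 1 base between them. It lies on the plus strand at chr5:151816986-151817235.
Trim63 promoter: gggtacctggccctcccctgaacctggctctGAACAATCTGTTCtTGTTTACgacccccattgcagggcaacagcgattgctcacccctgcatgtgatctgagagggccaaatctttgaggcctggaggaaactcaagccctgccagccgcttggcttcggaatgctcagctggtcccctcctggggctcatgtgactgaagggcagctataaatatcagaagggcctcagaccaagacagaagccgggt

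In males, CLP raised Cblb and Ddit4. Mstn was detected in most sham hearts and in no CLP heart, and the other 7 genes did not pass the FDR of 1%. In females, CLP raised Cblb, and the other 8 genes tested did not pass. Trim63, the gene most often named beside Fbxo32 as a marker of muscle atrophy, was not raised by CLP in either sex, with differences of -0.35 in males and -0.58 in females. Of all genes tested, 8.21% passed in males (3.94% higher and 4.27% lower) and 3.78% in females (1.90% higher and 1.88% lower), against 3 of 10 and 1 of 9 of the genes described. The count of 3 holds Mstn, which passed the filter on dim probes only through the sham group, so that its pass adds no support, and 2 of the other 9 passed. The median difference of the 10 genes was 0.29 in males, against -0.0034 over all 19726 genes tested, and that of the 9 genes tested in females was 0.33, against -0.016 over 19461 genes. Since the genes were chosen with earlier results of these data known, these counts and medians only describe them and test nothing.

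**Figure D1:**
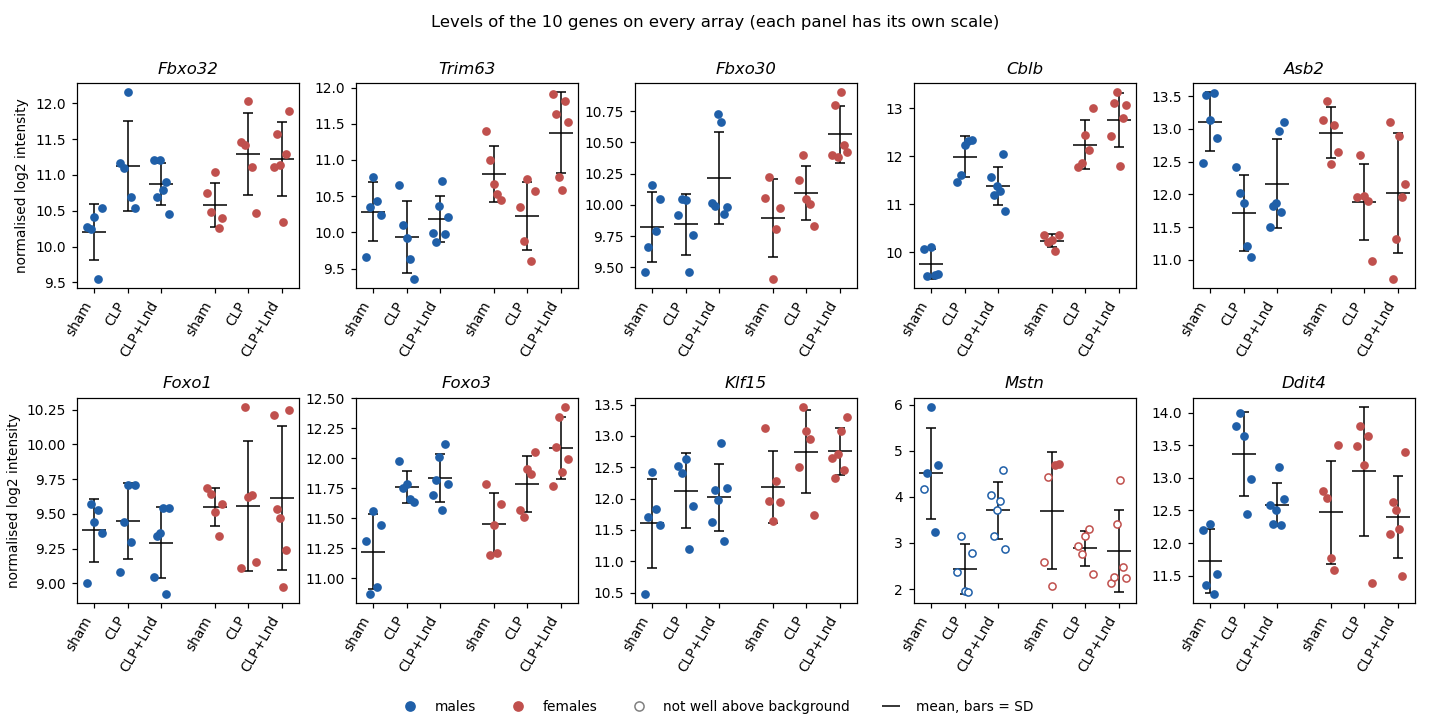
Normalised log2 intensity of each of the 10 genes (one panel each, with its own vertical scale) on every array of the sham, CLP and CLP plus landiolol (CLP+Lnd) groups. Points are arrays, males in blue and females in red, open points were not well above background, horizontal lines are group means and bars are SD. Cblb separates sham from both CLP groups in each sex, and Mstn is at background on all arrays of both CLP groups.

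**Figure D2:**
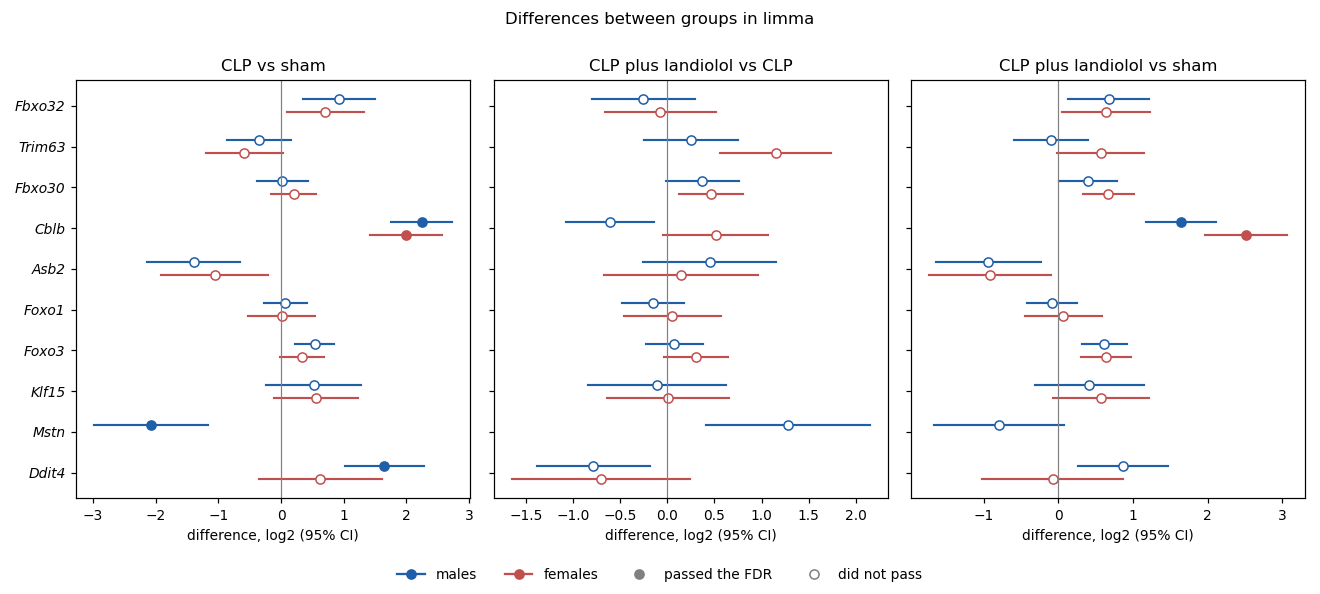
Difference between groups on the log2 scale for each gene in the 3 comparisons, with 95% confidence intervals from limma, males in blue and females in red. Filled points passed the FDR, which they did for Cblb in 4 comparisons and for Mstn and Ddit4 in males for CLP vs sham. Mstn was above background on none of the CLP arrays, so its points compare with background, and it is not shown in females because it was too dim to be tested.

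Among the ligases, Cblb had the largest rise. Cbl-b is a ligase that restrains signalling from receptors and, in unloaded skeletal muscle, targets the insulin receptor substrate Irs1. In males its level was 10.06, 9.51, 10.11, 9.52 and 9.53 in the sham group and 11.46, 11.61, 12.24, 12.32 and 12.33 in the CLP group. The lowest CLP array thus lay above the highest sham array. The difference was 2.24 (SE 0.231), or 4.74-fold, with an adjusted p of 2.00e-05 in limma. In females the level was 10.35, 10.21, 10.25, 10.03 and 10.35 in the sham group and 11.76, 11.85, 12.44, 12.13 and 13.01 in the CLP group, again without overlap. That difference was 2.00 (SE 0.272), or 4.0-fold, with an adjusted p of 0.000359. The second Cblb probe gave 2.29 in males and 1.92 in females and passed in both. Within slides the difference was 1.98 and 2.61 in males and 1.67 and 2.28 in females. The probe used lies at chr11:49690603-49690662 and the second at chr11:49687977-49688036 (rn4, minus strand).

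On average, markers of neutrophils and macrophages were higher after CLP beside the rise of Cblb, a gene that leukocytes also express, while those of lymphocytes were not. Of the 6 neutrophil genes listed, 0 were above background on every sham array and 2 on every CLP array, in each sex. Only 2 of the 6, S100a8 and S100a9, could be tested. S100a8 passed the FDR in both sexes and S100a9 in males. In males S100a8 was above background on no sham array, so its pass there compares CLP with background and adds no support. Their mean level ranged from 2.57 to 3.14 in sham and 3.76 to 4.75 in CLP males, and from 2.71 to 3.30 in sham and 3.99 to 4.68 in CLP females. Of the 6 macrophage and monocyte genes, 2 of 6 passed the FDR in each sex, both higher, and the mean level ranged from 8.56 to 9.19 in male sham, 9.23 to 10.20 in male CLP, 8.35 to 9.20 in female sham and 8.93 to 9.72 in female CLP arrays. Of 6 lymphocyte genes, 2 could be tested, and Cd3g and Nkg7 differed by -1.36 and -0.86 in males and by -0.67 and -0.66 in females without passing 1%. The mean level of this list ranged from 3.92 to 4.70 in male sham, 3.59 to 4.19 in male CLP, 3.85 to 4.55 in female sham and 3.82 to 4.38 in female CLP arrays. Of the neutrophil list, Mpo and Elane were above background on no array of any group with CLP, while Mpo was above it on some of the male sham arrays. The part of these lists in the difference of Cblb was not tested.

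Fbxo32, the gene of atrogin-1, an F-box protein that brings calcineurin and other substrates to its ligase, was higher in CLP than in sham on average but passed in neither sex. The level in males was 10.27, 10.25, 10.42, 9.55 and 10.54 in the sham group and 11.17, 11.10, 12.15, 10.70 and 10.54 in the CLP group. Both groups had an array at 10.54, so they met there, and the CLP array at 12.15 lay farthest from sham. The difference was 0.93 (SE 0.268), or 1.90-fold, with an adjusted p of 0.0276, which is past 5% but not past 1%. In females the level was 10.75, 10.48, 11.04, 10.26 and 10.40 in the sham group and 11.46, 11.42, 12.03, 11.12 and 10.47 in the CLP group, and 1 CLP array lay among the sham arrays. The difference was 0.71 (SE 0.289), with an adjusted p of 0.146. The probe printed above, which spans the longer stretch of the genome, gave 0.84 (adjusted p 0.14) in males and 0.51 (adjusted p 0.197) in females. In males the first probe passes at 5% and the printed one does not. The annotation version in the scanner files of the males names only the printed probe Fbxo32, while that of the females names both.

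Trim63, the gene of MuRF1, a RING-finger ligase of sarcomere proteins, was not higher after CLP. The level in males was 9.66, 10.35, 10.77, 10.43 and 10.23 in the sham group and 10.66, 10.10, 9.93, 9.64 and 9.36 in the CLP group. The ranges overlapped nearly throughout. The difference was -0.35 (SE 0.244, 95% confidence interval -0.87 to 0.17), with an adjusted p of 0.386, and it was 0.23 on one male slide and -0.98 on the other. In females the level was 11.39, 11, 10.67, 10.53 and 10.45 in the sham group and 10.35, 9.88, 10.73, 9.60 and 10.57 in the CLP group. Here 3 of 5 CLP arrays lay under the lowest sham array. The difference was -0.58 (SE 0.290, 95% confidence interval -1.20 to 0.030), with an adjusted p of 0.243. The intervals thus ended at 0.17 and 0.030 on the side of a rise.

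Asb2, the substrate receptor of a ligase that removes filamins, was lower after CLP in both sexes without passing at 1%. In males its level was 12.48, 13.52, 13.14, 13.55 and 12.86 in the sham group and 12.42, 12.01, 11.88, 11.21 and 11.04 in the CLP group, and the groups did not overlap. The difference was -1.40 (SE 0.347), with an adjusted p of 0.0121. In females the level was 13.13, 13.42, 12.46, 13.05 and 12.65 in the sham group and 11.96, 12.61, 11.98, 11.89 and 10.98 in the CLP group, with 1 CLP array among the sham arrays. The difference was -1.06 (SE 0.402), with an adjusted p of 0.116. On the slides it was -0.89 and -2.06 in males and -0.50 and -1.60 in females. Fbxo30, the F-box protein MUSA1, had group means between 9.82 and 9.85 in sham and CLP males, a difference of 0.021 (SE 0.192), and differed by 0.20 (SE 0.167) in females, with adjusted p values of 0.962 and 0.524.

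Of the transcription factors, Foxo3, the FoxO factor best known for driving Fbxo32 and autophagy genes, was slightly higher after CLP without passing at 1%. In males it was 11.31, 10.87, 11.56, 10.93 and 11.44 in the sham group and 11.97, 11.75, 11.78, 11.66 and 11.63 in the CLP group, without overlap. The difference was 0.54 (SE 0.148), or 1.45-fold, with an adjusted p of 0.0212, and the second probe gave 0.57 with an adjusted p of 0.0314. In females the difference was 0.33 (SE 0.167, adjusted p 0.253) by the first probe and 0.52 (adjusted p 0.0291) by the second, so at an FDR of 5% the call depends on the probe. Foxo1, its relative, had sham and CLP means of 9.38 and 9.45 in males and of 9.55 and 9.56 in females. Its differences were 0.067 (SE 0.162) and 0.0079 (SE 0.255). Klf15, a target of the glucocorticoid receptor that controls amino acid catabolism, ranged from 10.49 to 12.43 in male sham and from 11.20 to 12.63 in male CLP arrays, and from 11.64 to 13.13 and 11.73 to 13.46 in females. The differences of 0.52 (SE 0.358) and 0.56 (SE 0.318) were within this spread, with adjusted p values of 0.382 and 0.323.

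Myostatin, a secreted factor of the TGF-β family that limits muscle growth, was at the lower end of what the array could read. In males the level was 4.17, 4.51, 5.95, 3.23 and 4.69 in the sham group, of which 4 of 5 arrays were well above background, and 2.36, 3.16, 1.95, 1.93 and 2.78 in the CLP group, of which none was. All CLP arrays lay under the lowest sham array. The CLP group therefore has only a bound, and by this probe the signal was at least 2.08-fold higher in sham than in CLP. The adjusted p in limma was 0.00372, but the probe was tested only because the sham arrays were bright enough, so this p sets sham against background values and adds no support. This bound sets the sham mean against the higher of a CLP array's own value and its dimmest probe well above background. The second Mstn probe, well above background on 3 of 5 male sham arrays and on no other male array, could not be tested, and its means were 3.70 in sham and 3.62 in CLP, so it did not show the difference of the first. Its bound was 1.01-fold, so the bound of the first probe does not hold for both. The annotation version in the scanner files of the males names only the second probe Mstn, while that of the females names both. In females Mstn was well above background on 2 of 5 sham arrays (levels 4.70 and 4.72) and on none of the CLP arrays, and it was not tested. The first probe could be tested under 22 of 27 alternatives and dropped out in the others, and it did not pass 1% with normexp background correction, in the authors' table of values, with only the groups compared in the fit, or without male CLP replicate 3 or 4.

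Markers of fibroblasts were also lower in male CLP hearts. Of 6 fibroblast genes, 4 fell, while Dcn was higher by 0.87 (adjusted p 0.0467) and Pdgfra lower by 0.40 (adjusted p 0.155) without passing. Their mean level ranged from 12.63 to 13.39 in sham and from 11.23 to 12.33 in CLP males. Col1a1 fell by 2.11 and Col3a1 by 2.05 on the log2 scale, with adjusted p values of 0.00154 and 0.00129. In females none of the 6 passed 1% in limma, where 4 were lower and 1 (Dcn, 0.77) was higher at an unadjusted p under 0.05 and the median was -1.07, and the mean level ranged from 12.13 to 12.72 in sham and from 10.74 to 12.45 in CLP. Of the 7 skeletal muscle genes, 4 could be tested in males, of which Tnnt3 fell by 1.22 (adjusted p 0.00252) and Actn3 rose by 1.49 (adjusted p 0.00673). Their mean level ranged from 5.01 to 5.19 in male sham and from 4.75 to 5.35 in male CLP arrays. Their part in the difference of Mstn was not tested.

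Ddit4, or REDD1, which restrains the growth kinase complex mTORC1 and is induced by glucocorticoids and low oxygen, rose after CLP in males. The level was 12.20, 11.36, 12.29, 11.22 and 11.53 in the sham group and 13.79, 14.004, 13.64, 12.44 and 12.98 in the CLP group, without overlap. The difference was 1.65 (SE 0.295), or 3.14-fold, with an adjusted p of 0.00139, and the printed second probe gave 1.55 with an adjusted p of 0.00546. In females the level was 12.80, 12.69, 11.78, 11.59 and 13.51 in the sham group and 13.49, 13.80, 13.21, 13.64 and 11.38 in the CLP group. Here 4 of 5 CLP arrays were between 13.21 and 13.80 and 1 was the lowest of both groups. The difference was 0.63 (SE 0.465), with an adjusted p of 0.467, and 1.06 (adjusted p 0.0989) without that array, replicate 5. The difference of the CLP effect between males and females was 1.03 (SE 0.573), with an unadjusted p of 0.0830 and an adjusted p of 1.0 in limma.

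The CLP effect did not differ detectably between the sexes for any of the 10 genes. In the interaction, fitted to all 32 arrays normalised together, limma passed 0 of 10 genes at 5% and 0 at an unadjusted p under 0.05. Of all 20198 genes 0% passed, and 3.71% were under an unadjusted 0.05. Mstn was too dim in all CLP arrays for a difference to be read. For Cblb the difference was 0.20 (95% confidence interval -0.55 to 0.94) and for Trim63 0.25 (95% confidence interval -0.55 to 1.04).

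The effect of landiolol in septic rats was examined next. None of the 10 genes in males and none of the 9 in females passed the FDR of 5% between CLP plus landiolol and CLP in limma, against 1.62% and 0.0874% of all genes, and SAM, the test of the study, also passed 0 in each sex. At an unadjusted p under 0.05 there were Cblb and Ddit4 in males and Trim63 and Fbxo30 in females. Of all genes tested, 15.1% in males and 9.44% in females were under it, so counts this small say little about these genes. Mstn was also under 0.05 in males, but neither group had an array above background, so this says nothing about landiolol. These comparisons use the same CLP arrays as those with sham, so a CLP value that is high by chance enters both with opposite sign.

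In males, Cblb ranged from 10.86 to 12.04 (median 11.32) with landiolol. All 6 of these arrays lay above the highest sham array, at 10.11, and they overlapped with the CLP group. The difference from CLP was -0.61 (SE 0.221, adjusted p 0.202), beside the rise of 2.24 from sham to CLP, and that from sham was 1.64 (SE 0.221, adjusted p 0.000270). Ddit4 ranged from 12.28 to 13.18 (median 12.55), with a difference from CLP of -0.78 (SE 0.282, adjusted p 0.199). This difference was -1.35 on one slide and 0.0042 on the other. Mstn was well above background on none of the CLP plus landiolol arrays, as on none of the CLP arrays, so no fold is given. The difference of Fbxo32 was -0.25 (SE 0.257), of Trim63 0.25 (SE 0.234) and of Asb2 0.45 (SE 0.332), with adjusted p values of 0.661, 0.635 and 0.546.

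In females, Trim63 had the smallest unadjusted p of the 9 genes. With landiolol it ranged from 10.59 to 11.91 (median 11.58), against 9.60 to 10.73 in untreated CLP females. The groups overlapped by 1 array of the first and 1 of the second. The difference was 1.15 (SE 0.277), or 2.22-fold, with an unadjusted p of 0.000770 and an adjusted p of 0.136 in limma, and it was 1.76 and 0.70 on the slides. Compared with female sham, where Trim63 lay between 10.45 and 11.39, the difference was 0.56 (SE 0.277, adjusted p 0.208). Over all alternative settings and arrays left out, the difference from CLP lay between 0.99 and 1.30 and its adjusted p between 0.0771 and 0.480. Fbxo30 was higher by 0.47 (SE 0.16, adjusted p 0.333), with values from 10.38 to 10.90 against 9.83 to 10.39 in CLP, which overlap slightly. Ddit4 differed from CLP by -0.71 (SE 0.445, adjusted p 0.669), near the male difference, and by -1.67 and 0.052 on the slides. Its landiolol effect in males minus females was -0.090 (SE 0.549). Cblb, from 11.80 to 13.33 (median 12.93), was higher than CLP by 0.51 (SE 0.261, adjusted p 0.577). Over the alternatives it was higher by 0.18, with the row on the slide as a term, to 0.71.

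**Figure D3:**
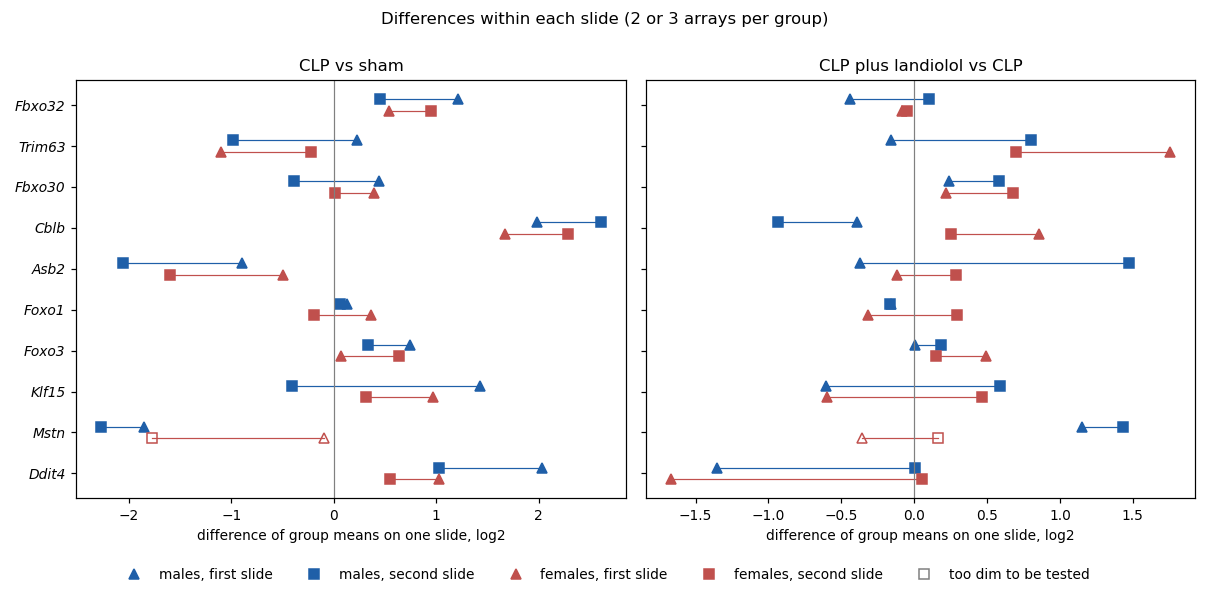
Difference of group means on the log2 scale computed within each slide for CLP vs sham (left) and CLP plus landiolol vs CLP (right), with males in blue, females in red, triangles for the first and squares for the second slide of a sex, and open symbols for Mstn in females, which was too dim to be tested. Each symbol rests on 2 or 3 arrays per group. Cblb was higher after CLP on all 4 slides, while after landiolol it was lower than CLP on both male and higher on both female slides. All female landiolol arrays were in row 2 of their slide, and female CLP arrays were in both rows.

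For Cblb the landiolol differences had opposite signs in the sexes, -0.39 and -0.94 on the male slides and 0.85 and 0.25 on the female slides. All female landiolol arrays were in row 2 of their slide and CLP arrays in both rows, so the female difference partly goes with the row. With the row as a term the female difference was 0.18, the lowest of the alternatives, against 0.51 without the term. The highest of the alternatives was 0.71. The limma test of the difference between the sexes gave -1.12 (SE 0.349) with an unadjusted p of 0.00329, but the adjusted p was 0.969. It lay between -1.31 and -0.79 over the alternatives. The second Cblb probe gave -1.05. For Trim63 the difference between males and females was -0.92 (SE 0.372), with an unadjusted p of 0.0199 and the same adjusted p. These were the 2 genes of the 10 under an unadjusted 0.05, against 4.85% of all genes, and none passed the FDR of 5%, as did 0% of all genes.

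Septic rats given landiolol were also compared with sham rats. Cblb passed in both sexes, at 1.64 in males and 2.51 (SE 0.261, adjusted p 3.73e-05), or 5.71-fold, in females, and it was the 1 gene of the 10 in each sex to pass 1%, against 4.39% and 5.49% of all genes. Its values did not overlap with sham in either sex. Foxo3 was higher by 0.61 (SE 0.142, adjusted p 0.0122) in males, from 11.57 to 12.12 (median 11.80), and by 0.63 (SE 0.16, adjusted p 0.0165) in females, from 11.77 to 12.43 (median 12.05). Fbxo30 in females was higher by 0.67 (SE 0.16, adjusted p 0.0123), and its groups did not overlap, but its second probe gave an adjusted p of 0.0708. In females every sham array was in row 1 of its slide and every landiolol array in row 2, with CLP arrays in both rows. With the row as a term the female difference of Cblb was 1.96 (adjusted p 0.0931), and none of the 9 genes passed. In that fit 17 of all 19461 genes passed, against 1069 without the term, so the lack of calls is general and says nothing particular about these genes.

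The genes around these 10 were described through 6 lists, whose counts are set beside the shares of all genes given above. The lists too were chosen with earlier results of these data known, so their counts are a description and no test. For CLP vs sham, the named genes that passed with any 1 of the 16 arrays of a sex left out were Trim54, Eif4ebp1, Map1lc3b, Prkaa2, Inhbb, Acvr1b, Smad3, Hsd11b1 and Fkbp5 in males and Eif4ebp1 and Hsd11b1 in females. Every other call named below for that comparison was lost without at least 1 array. In females with the row as a term, Eif4ebp1, Acvr1b and Hsd11b1 passed after CLP, and no gene of the 6 lists passed for CLP plus landiolol vs sham. Of 26 other ligases and adaptors of muscle, 25 were tested in males and 26 in females. After CLP, 4 passed in males and 3 in females. Trim54 (MuRF3, a microtubule-associated relative of MuRF1) rose in both, by 1.13 and 0.83 on the log2 scale. Fbxo40, whose product acts on Irs1, fell in both, by 0.94 and 0.93. Trim55 (MuRF2) fell by 1.0 and Nedd4l, a ligase of ion channels, rose by 1.08 in males, and Traf6, a ligase of inflammatory signalling, fell by 0.84 in females. After landiolol, Asb18 was higher than in CLP in both sexes, by 2.10 (adjusted p 0.0313) and 2.21 (adjusted p 0.0468), and Asb15 was higher by 1.14 in males. In females with the row as a term, Asb18 was higher by 2.72 with an adjusted p of 0.142 in limma, and none of the 26 genes passed. With 1 array left out, Asb18 passed in 10 of 16 cases in males and 5 of 16 in females, with adjusted p values of up to 0.104 and 0.122, and Asb15 in 5 of 16, so these calls rest on single arrays. Both belong to the same family of substrate receptors as Asb2. The medians over this list were -0.037 and -0.057 for CLP vs sham.

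**Figure D4:**
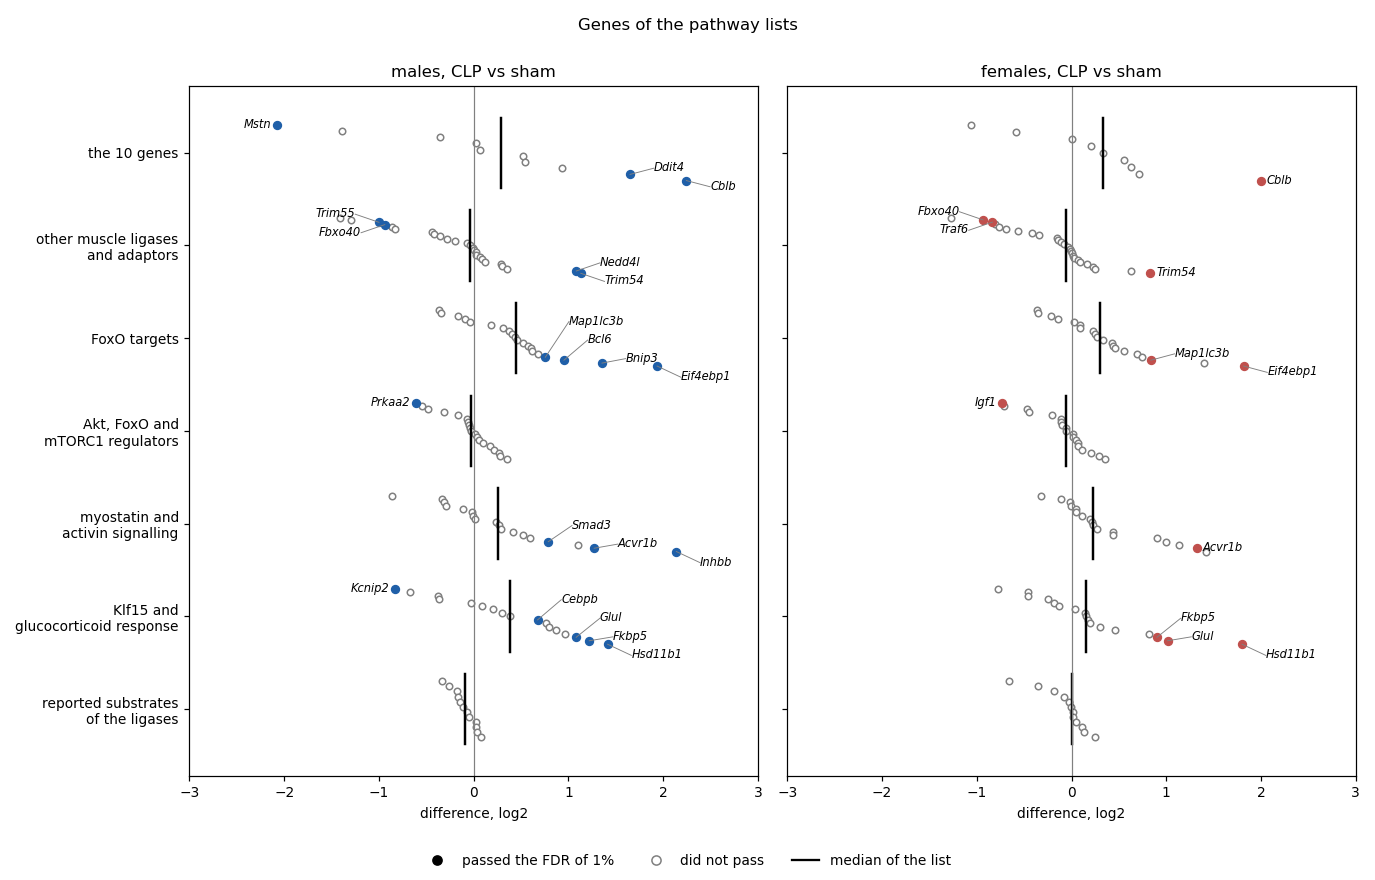
Difference between CLP and sham on the log2 scale for every tested gene of the 10 described and of 6 pathway lists, in males (left) and females (right). Filled and labelled points passed the FDR of 1%, open points did not, and black bars are list medians, which lie at 0.45 and 0.30 for FoxO targets.

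Targets of FoxO factors that passed were higher. Of 20 tested in each sex, 4 rose in males and 2 in females, against 3.94% and 1.90% of all genes, and none passed as lower in limma, where 1 was lower at an unadjusted p under 0.05 in males and 0 in females. Eif4ebp1, which encodes an inhibitor of translation that mTORC1 switches off, rose by 1.94 (SE 0.291) in males and 1.82 (SE 0.253) in females, with adjusted p values of 0.000369 and 0.000431. Map1lc3b, a component of autophagosomes, rose by 0.76 and 0.84. Bnip3, a mitophagy receptor, rose by 1.35 and Bcl6, a repressor, by 0.95 in males. Pdk4 and Sesn1, often used to read FoxO activity, differed by 0.68 (SE 0.408) and 0.41 (SE 0.458) in males and did not pass. In landiolol-treated rats compared with sham, 4 of 20 rose in males and 5 of 20 in females, against 4.39% and 5.49% of all genes changed in either direction, among them Gabarapl1 by 0.94 and 1.12 and, in females, Cited2 by 1.76. With the row on the slide as a term none of the 20 passed in females, where row and group went together. The list's median was 0.45 in males and 0.30 in females after CLP, against -0.0034 and -0.016 over all genes. As this list was chosen with earlier results known, its counts and medians do not test FoxO activity.

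Upstream of these factors, 1 of 19 regulators of Akt, FoxO and mTORC1 passed after CLP in each sex, a share near the 8.21% and 3.78% of all genes. Prkaa2, a catalytic subunit of AMPK, fell by 0.61 in males. Igf1, which activates Akt, fell by 0.74 in females, and was -0.48 (adjusted p 0.0677) in males. After landiolol none of the 19 differed from CLP in limma, with 3 under an unadjusted p of 0.05 in males and 3 in females, against 15.1% and 9.44% of all genes. In males Prkaa2 and Akt2 were lower than in sham by 0.56 and 0.53. Foxo4 was measured and did not pass, and Foxo6 was not used here.

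In the myostatin and activin list, 3 of 18 rose in males and 1 of 18 in females. Inhbb, a subunit of activin B and of inhibin B, rose by 2.14 (SE 0.264), or 4.40-fold, with an adjusted p of 8.27e-05 in males. Acvr1b, a type I receptor for activins and myostatin, rose by 1.27 and 1.32 in males and females. Smad3, which carries the signal to the nucleus, rose by 0.79 in males. Gdf11, the closest relative of myostatin, was lower by 0.67 (adjusted p 0.0441) in landiolol-treated than in untreated septic males, and passed in 5 of 16 cases with 1 array left out.

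Of 17 Klf15 and glucocorticoid genes tested, 5 passed in males and 3 in females. Hsd11b1, which regenerates active glucocorticoid, rose by 1.41 and 1.80. Fkbp5, a target of the glucocorticoid receptor, rose by 1.22 and 0.90, and Glul, the glutamine synthetase gene, by 1.08 and 1.01. Kcnip2, a subunit of the transient outward potassium channel under Klf15 control, fell by 0.83 in males. Cebpb, named outside the rule after its value was seen, rose by 0.67 in males. Tsc22d3, another target of the receptor, differed by 0.085 in males and -0.13 in females and did not pass, nor did Per1.

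Reported substrates of these ligases were listed too. After CLP 0 of 12 passed in either sex in limma, and their medians were -0.087 and 0.0060. At an unadjusted p under 0.05 there were 2 in males and 2 in females, against 29.1% and 23.4% of all genes. With 8.21% and 3.78% of all genes passing, a list of this size is too short to be set apart from the rest. Irs1, a substrate of Cbl-b, was higher in landiolol-treated than in untreated septic males by 0.95 (SE 0.169, adjusted p 0.0120). The array measures RNA, so the protein levels of substrates, which the ligases set, are not seen.

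The genes whose pattern over the 32 arrays was closest to those of the 2 best-known ligases were listed as a description, after the mean of each sex was removed. Of 12856 genes with a name, those closest to Fbxo32 were Arrdc3 (Pearson r 0.820), Castor2 (0.744), Fmo5 (0.740), Hoga1 (0.722) and Frat1 (0.719). Those closest to Trim63 were Ppfibp2 (0.762), Insig1 (0.731), Paip2b (0.727), Tusc2 (0.690) and Spop (0.676). These arrays share group differences and slides, so the correlations hold both the spread within groups and the differences between them.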

How the data were processed

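The authors deposited the output of the scanner for every array (Agilent Feature Extraction 10.5, per the labels), in which each spot has a processed intensity, background-subtracted and detrended, with quality marks, and a table of log2 values, quantile-normalised and filtered by the authors, used here only as an alternative. Log2 of the processed intensity was taken, outlier spots were left out (213 missing values), replicate spots were averaged and arrays were quantile-normalised within a sex. A probe was kept if 80% or more of the arrays of 1 group showed it well above background (25864 in males, 25394 in females). Each sex was fitted with limma 3.58.1 in R 4.3.3 over its 3 groups and interactions over all 32 arrays. The tests were checked on simulated data. SAM, the test named in the methods, used 100 drawn permutations and was an alternative. Replicate numbers name arrays and pair nothing. The labels name separate animals, and the number of arrays limits the precision. Genes were counted by the probe with the highest mean. The text names the 10 genes, up to 4 passing genes per list and comparison by size, and 5 genes most like Fbxo32 and Trim63. Members and lists were chosen with earlier results of these data known.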

Additional observations from a re-analysis of the deposited data

Results flagged for a closer look

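Among 60 groups (10 genes in 6 groups), 1 array stood apart by its gap to the nearest array of its group. Ddit4 in replicate 5 of the female CLP group had a level of 11.38, whereas the next array of the group was at 13.21 and the highest at 13.80, so the gap took up 0.754 of the range of the group. The spot was well above background. Chance alone sets about 1 group in 20 apart in this way.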

How the results depend on the processing

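No call turned its direction under any alternative. Of 2332 values of a gene under an alternative, 2310 stayed on the same side of the threshold, 6 lost it and 16 passed it, and 69 that were not called changed sign. The number of genes passing in males for CLP vs sham rose from 3 to 6 with the FDR levels exchanged. For CLP plus landiolol vs sham in males it rose from 1 to 2 with scaling to the 75th percentile, normexp, a trended prior or the FDR levels exchanged, and ranged from 1 to 2 with single arrays left out (2 without male sham replicate 3), Foxo3 being added to Cblb. In females for that comparison it was 3 with normexp or the FDR levels exchanged, 2 with a trended prior, 0 with the row on the slide as a term, and 1 to 2 with single arrays left out (2 without female sham replicate 2). Counts for the other comparisons stayed within 1.5 times. Mstn in males passed under 17 of the 22 alternatives in which it could be tested, each against background values. Asb2 passed 1% in males under 8 of 27 alternatives. The causes were not tested. No paired analysis was possible because replicate numbers only name the arrays. Signal over background limits Mstn, and 5 or 6 arrays per group limit all differences.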
